A study of Mus musculus with 6 samples.

Results

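Rejecting and naive mouse kidneys were compared in the cells that carried no unique molecular identifier (UMI, a tag that marks 1 captured RNA molecule) of Ptprc, Cd3e, or C1qb, which encode the pan-leukocyte surface protein CD45, a subunit of the T cell receptor complex, and a chain of the complement protein C1q made by macrophages. The cells were thus chosen by their UMI counts of these 3 genes, within limits of 500 or more UMIs, 250 or more genes, and a mitochondrial share of 50% or less. Of the 33098 barcodes within these limits in 4 kidneys, 17320 had none of the 3 RNAs and were kept. They came from 40536 barcodes of these kidneys, and the series held 60181 barcodes in 6 kidneys. The kept cells numbered 6998 and 5729 in naive kidneys 1 and 2 and 2678 and 1915 in rejecting kidneys 1 and 2, which was 96.9%, 94.57%, 22.81%, and 23.7% of the cells within the limits. Naive kidneys came from untransplanted male C57BL/6 (B6) mice aged 10 to 12 weeks. Rejecting kidneys were labeled male BALB/c grafts at 6 to 7 weeks, placed into B6 recipients whose own kidneys had both been removed and who received no tolerizing treatment, and they were taken on day 15. Whole kidneys were dissociated, and cells of graft and recipient were sequenced together. Each kidney was 1 droplet library and 1 replicate (n = 2 per group). Strain, age, transplantation, the set of droplet barcodes, and the version of the counting software all differed between the groups, so that their parts in any difference cannot be told apart.

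The kidney filters blood and then recovers most of the filtrate along the nephron. Proximal tubule cells take back sugar, amino acids, phosphate, and protein, secrete organic ions, and draw their energy from fatty acid oxidation and mitochondrial respiration, and they outnumber the cells of the loop, distal tubule, and collecting duct. In a rejected graft, T cells and natural killer cells release interferon-γ, which acts through transcription factors such as IRF1 on many cell types and raises the genes that present peptides on MHC molecules.

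The matrices held 34874702 to 56837038 UMIs per kidney, and the kept cells 11320121 to 32501476 UMIs over the 28208 genes shared by both gene lists. The median UMI count of a kept cell was 3732 and 3503 in the naive kidneys and 2029 and 3516 in the rejecting kidneys, and the median mitochondrial share was 25.82% and 25.54% against 19.18% and 16.86%. Replicates shared 111 barcodes (naive) and 31 barcodes (rejecting), and a naive and a rejecting kidney shared at most 2. Within the limits, 107 and 138 naive cells and 2142 and 788 rejecting cells stood just outside the rule with exactly 1 UMI of the 3 genes, and 73.83%, 92.03%, 49.16%, and 27.03% of them carried at least 2 proximal tubule markers. At the mitochondrial limit, 89, 90, 18, and 8 kept cells lay less than 1 percentage point below it, and 69, 79, 32, and 9 cells without the 3 RNAs less than 1 point above it.

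The absence of 3 RNAs did not leave kidney cells alone in the rejecting kidneys, so the cells are called kept cells here. At least 2 genes of a kidney marker list were detected in 99.81%, 99.95%, 80.10%, and 80.99% of the kept cells of naive kidneys 1 and 2 and rejecting kidneys 1 and 2. At least 2 genes of a leukocyte marker list were detected in 0.9003%, 2.322%, 77.74%, and 35.46%. The list of macrophages and monocytes, with genes such as Lyz2 and Tyrobp, gave most of that share, at 69.16% and 23.97% in the rejecting kidneys, and fell to 23% and 4.334% once each cell was thinned to 500 UMIs. T cell markers were found in 29.87% and 7.781% of the rejecting cells and in 0.2286% and 0.2095% of the naive cells. A leukocyte list without any kidney list was found in 17.7% and 15.93% of the rejecting cells, which held 5.271% and 6.694% of the UMIs. Those cells had median UMI counts of 784 and 1874. Mixed markers were found in both directions. Of the cells left out by the rule, 73.21% and 93.62% in the naive and 29.95% and 11.84% in the rejecting kidneys carried at least 2 proximal tubule markers. All cells left out of the rejecting kidneys had median UMI counts of 2610 and 3755. The source of the mixed markers was not tested. The summed level of the 16 macrophage and monocyte genes was 30.21 and 60.15 raw CPM (UMIs of a gene scaled to the same library total) in naive and 848.9 and 414.7 in rejecting kept cells, against 17202 and 22620 in the rejecting cells left out. The 7 B and plasma cell genes stood at 13.75, 79.12, 341.5, and 8288 raw CPM, so rejecting kidney 2 was far above the other kidneys. The 14 T cell genes summed to 7.446, 8.297, 363.7, and 180.7 raw CPM and the 9 genes of natural killer and cytotoxic cells to 3.815, 21.34, 519.7, and 201.8. The 5 neutrophil genes summed to 1.385 to 30.83 raw CPM, and the 5 dendritic cell genes to 0.7196 to 3.269.

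Proximal tubule markers were found in 92.23% and 96.49% of naive and 58.51% and 53.00% of rejecting kept cells, and after thinning in 75.46%, 75.16%, 51.05%, and 48.62%. Markers of the thick ascending limb, which reabsorbs salt, were found in 29.11%, 33.55%, 24.61%, and 27.83% of kept cells as counted, and in 7.888%, 9.600%, 10.60%, and 14.67% after thinning. Collecting duct principal cell markers were found in 11.79%, 11.96%, 2.166%, and 4.961%. Stromal markers were found in at most 0.574% of the cells of any of the 4 kidneys. The shares were not tested between the groups, and a cell counted for one list may also be counted for another.

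**Figure D1:**
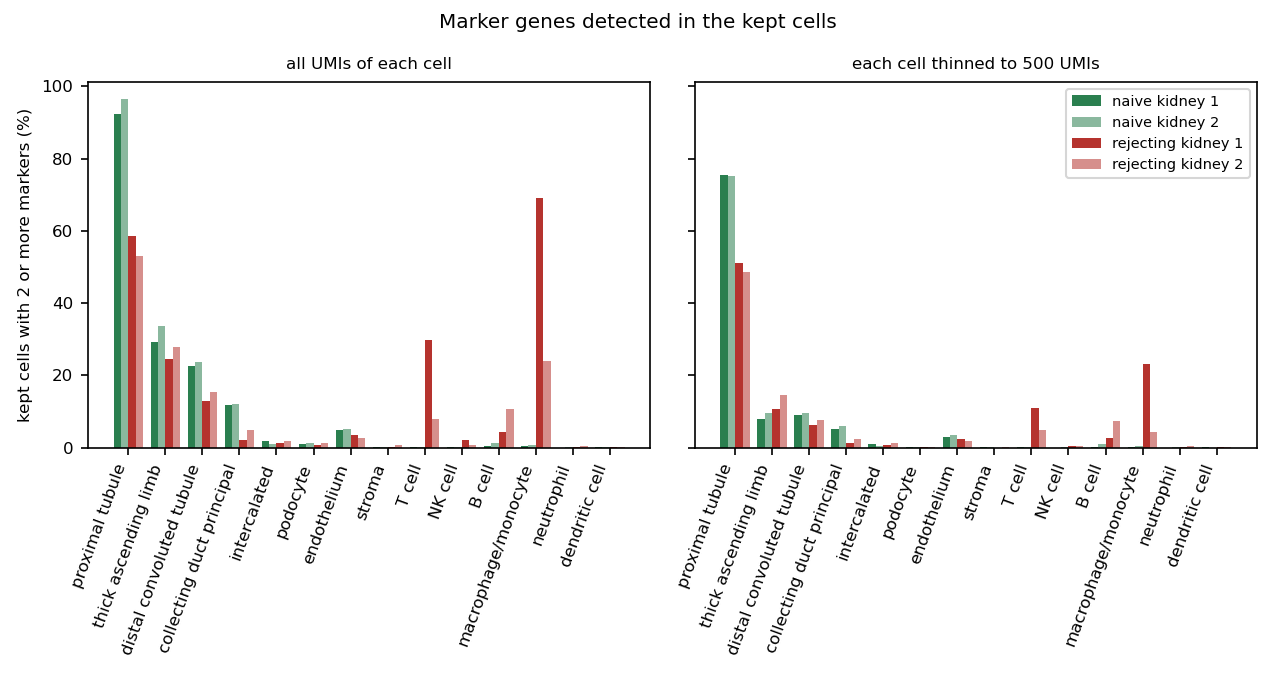
Share of the kept cells of each kidney (y axis, %) in which at least 2 genes of a marker list were detected, with all UMIs (left) and after thinning each cell to 500 UMIs (right); each bar is 1 kidney. The macrophage/monocyte bars of the rejecting kidneys fall from 69.16% and 23.97% to 23% and 4.334%, while both naive kidneys stay below 1%.

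The raw counts of the kept cells were summed per kidney and entered the quasi-likelihood test of edgeR, and FDR below stands for its false discovery rate, the p value after Benjamini-Hochberg adjustment across the whole table. Levels below are CPM of these sums after TMM scaling unless called raw, and fold changes are log2 values, rejecting minus naive. The standard error (SE) beside them is the absolute log2 fold change divided by the square root of the F statistic of the test. It was not estimated by the fit itself. Of 13923 genes tested, 2589 (18.6%) were higher and 2118 (15.2%) lower in the rejecting kidneys at an FDR below 0.05, which is 33.8% in all, and the median log2 fold change of all genes was 0.02. The CPM of the 2 groups did not overlap for 72.3% of the genes, and for 36.8% the rejecting kidneys were the higher ones. These shares are the background against which the counts of each gene list are set. The number of calls fell from 4707 to 1829 without naive kidney 1 and to 1766 without naive kidney 2. Counts of a list without 1 kidney are given beside the count where they moved most. Many genes named below were picked as the largest changes of their list among those called without overlap, so their separation was fixed by the choice. A gene could pass the filter on low counts through the rejecting kidneys alone and then had to be higher there, so counts of such members say less. In bulk sums, fewer cells of a type and less RNA per cell cannot be told apart. Therefore, 2 further selections of the kept cells are given beside the main one: cells with at least 3 of 20 proximal tubule genes (proximal tubule-marked cells, 6419, 5558, 1513, and 998 in the order above), and cells with a kidney list and no leukocyte list (kidney-marked cells, 6929, 5595, 537, and 1177). Of 13208 genes tested in proximal tubule-marked cells, 34.8% passed, 17.4% higher and 17.4% lower, and of 13319 tested in kidney-marked cells, 24.2% passed, 13.0% higher and 11.1% lower. All counts of a list in either selection below are set against these shares. Both selections were added after the data were seen and still held leukocyte RNA in the rejecting kidneys, with macrophage and monocyte genes at 569.9 and 183.0 raw CPM in proximal tubule-marked cells and 258.8 and 85.31 in kidney-marked cells. The 20 genes include Lrp2, Cubn, Slc34a1, Miox, and other members of the lists below. Levels of such genes in proximal tubule-marked cells depend in part on the selection itself. That selection left out a larger share of the 2678 and 1915 rejecting than of the 6998 and 5729 naive kept cells. Lower levels there of genes of other cell types thus cannot be told apart from the selection. The kidney marker lists also hold genes tested below.

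Genes of the interferon-γ response were higher in the rejecting kidneys almost throughout. Of 39 members tested, 37 rose and none fell, against 18.6% of all genes higher, and the median log2 fold change was 4.78. Fewer than 10 UMIs were found in each naive kidney for 6 of the 39. The 2 groups did not overlap for 38. Over all genes, 72.3% did not overlap, and 36.8% did so with the rejecting kidneys higher. Irf1, a transcription factor induced by interferon-γ, stood at 13.79 and 14.96 CPM in the naive kidneys and 150.5 and 132.1 CPM in the rejecting kidneys. It was higher in each rejecting kidney than in either naive kidney, with a log2 fold change of 3.30 (SE = 0.169, edgeR FDR = 0.000299). The receptor and its kinases moved less, with Ifngr1 at a log2 fold change of 0.98, Jak1 at 0.78, and Jak2 at 1.25. Ifngr2, at 0.71, and Socs3, a feedback inhibitor of cytokine signaling, at 0.36, were the 2 members that did not pass.

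The guanylate-binding proteins and immunity-related GTPases, which act against pathogens within cells, included many of the largest changes of the list, beside Cxcl9, at 10.11, and others. Gbp2b had no UMI in the kept cells of either naive kidney, against 5011 and 5241 UMIs, or 397.0 and 389.4 CPM, in the rejecting kidneys. Gbp10 likewise had no naive UMI, against 71.54 and 104.9 CPM. Set against a floor of 3 UMIs over both naive kidneys, Gbp2b was at least 8305-fold higher and Gbp10 at least 1875-fold higher in raw CPM. For these genes too, the parts of strain, transplantation, and counting software cannot be told apart. In the cells left out by the rule, Gbp2b had a raw CPM of 1.127 and 3.281 in the naive and 290.3 and 261.8 in the rejecting kidneys, so the rejecting kept cells, at 442.7 and 445.1 raw CPM, were above the rejecting cells left out. Gbp10 showed the same order, with 79.77 and 119.9 raw CPM in kept and 27.48 and 15.59 in left-out rejecting cells. The Gbp genes, Tgtp1 and Tgtp2, and the H2 genes are families of near-identical copies, and reads could be split among them.

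Promoter windows of these genes are shown because the members moved together, and because IRF1 and other factors of the interferon response are known to bind short motifs. The windows are the 250 bases before a gene start in RefSeq (build GRCm38.p6, the reference of the B6 strain), and 30 of the 39 genes had at least 1 window in the table used here. The letters TTCNNNGAA, the gamma-activated site of genes that respond to interferon-γ, were found on either strand in 13 of the 37 windows of the list (35.14%) and in 7.02% of all 32851 windows. The core of the interferon-stimulated response element known for IRF proteins, read as GAAA, any 2 bases, and GAAA again, was found in 14 of 37 windows (37.84%) and in 2.977% of all windows. In the MHC class I list the letters were found in 1 of 20 windows (5%) and 3 of 20 (15%), and in the class II list each in 1 of 10 (10%). In the list of genes stimulated by type I interferon they were found in 3 of 19 windows (15.79%) and 8 of 19 (42.11%). The response element was thus not particular to the interferon-γ list. The 5 windows printed were picked because they hold a motif, and other windows of these lists, such as those of Cxcl9 and Cd274, held none. The motifs do not overlap each other in the 5 windows printed, and capitals mark every match on either strand. A match is a description of the letters and was not tested for binding.

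Irf1, with 1 gamma-activated site, lies at chr11:53769764-53770013 on the plus strand. Gbp2b, with 1 response element, lies at chr3:142594597-142594846 on the plus strand. Igtp, a GTPase with both motifs 2 bases apart, lies at chr11:58199306-58199555 on the plus strand. Cxcl10, with 1 response element, lies at chr5:92348890-92349139 on the minus strand, and B2m, with 1 response element, at chr2:122147437-122147686 on the plus strand.
Irf1: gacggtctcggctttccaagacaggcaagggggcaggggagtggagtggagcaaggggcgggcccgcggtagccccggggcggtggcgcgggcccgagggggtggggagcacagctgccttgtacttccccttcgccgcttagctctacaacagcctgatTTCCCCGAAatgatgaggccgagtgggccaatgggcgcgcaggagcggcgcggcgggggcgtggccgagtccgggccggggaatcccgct
Gbp2b: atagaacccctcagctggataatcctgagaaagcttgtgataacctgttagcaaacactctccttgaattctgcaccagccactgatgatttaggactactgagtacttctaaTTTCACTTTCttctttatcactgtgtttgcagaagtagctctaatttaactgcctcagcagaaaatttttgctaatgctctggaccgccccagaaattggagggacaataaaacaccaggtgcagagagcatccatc
Igtp: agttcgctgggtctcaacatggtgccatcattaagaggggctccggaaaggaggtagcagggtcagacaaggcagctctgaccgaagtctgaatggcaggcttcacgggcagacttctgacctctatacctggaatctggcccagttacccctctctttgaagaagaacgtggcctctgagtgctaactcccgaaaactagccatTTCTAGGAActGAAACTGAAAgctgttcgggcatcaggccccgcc
Cxcl10: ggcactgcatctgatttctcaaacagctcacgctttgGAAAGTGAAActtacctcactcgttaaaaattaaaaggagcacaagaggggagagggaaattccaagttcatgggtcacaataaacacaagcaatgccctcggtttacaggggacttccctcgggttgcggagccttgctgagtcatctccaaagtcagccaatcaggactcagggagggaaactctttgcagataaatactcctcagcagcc
B2m: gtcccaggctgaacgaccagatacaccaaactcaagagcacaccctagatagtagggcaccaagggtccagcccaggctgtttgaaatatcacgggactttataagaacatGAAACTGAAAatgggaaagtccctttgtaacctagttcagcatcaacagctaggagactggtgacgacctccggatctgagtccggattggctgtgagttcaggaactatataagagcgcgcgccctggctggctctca

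Of the MHC class I and peptide loading list, all 20 members tested rose, with a median log2 fold change of 3.82, and of the MHC class II list all 12 rose, with a median of 4.90, against 18.6% of all genes. No member of either list overlapped between the groups, where 72.3% of all genes did not overlap and 36.8% did so with the rejecting kidneys higher. Nlrc5, the coactivator of class I genes, stood at 0.2111 and 0.7574 CPM in naive and 25.19 and 19.17 CPM in rejecting kidneys. Psmb8, a subunit of the immunoproteasome that cuts peptides for class I, stood at 13.26 and 23.86 against 840.9 and 845.2 CPM. B2m, the light chain of class I molecules, stood at 232.1 and 407.4 against 1942 and 2808 CPM. The rejecting kidneys were above both naive kidneys for each of these genes, with log2 fold changes of 5.59 (SE = 0.469, edgeR FDR = 0.0011), 5.51 (SE = 0.341, edgeR FDR = 0.000465), and 2.89 (SE = 0.343, edgeR FDR = 0.00294). The smallest changes of the list were those of the chaperones Pdia3 (0.94) and Calr (0.82).

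Ciita, the master regulator of class II genes, was at 0.5277 and 0.6154 CPM in naive and at 81.12 and 51.86 CPM in rejecting kidneys, a log2 fold change of 6.86 (SE = 0.335, edgeR FDR = 0.000299). Cd74, the invariant chain that guides class II molecules, was at 87.99 and 148.5 against 3509 and 3294 CPM. H2-Eb2, a class II β chain, was at 0.03518 and 0.04734 CPM, which was 1 UMI in each naive kidney, against 3.803 and 4.532 CPM. Both naive kidneys were thus far below both rejecting kidneys for the regulator and for its targets. Class II genes are also high in leukocytes, and Cd74 had 11510 and 15080 raw CPM in the rejecting cells left out, against 3913 and 3765 raw CPM in the kept cells. Ciita had 173.7 and 115.7 raw CPM in the rejecting cells left out.

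The same lists were counted in the selections with fewer leukocyte markers. In proximal tubule-marked cells all 20 class I genes and 10 of 12 class II genes rose, with medians of 3.86 and 5.46, and 36 of 38 interferon-γ genes rose and 1 fell, with a median of 4.90. In kidney-marked cells 20 of 20, 11 of 11, and 37 of 39 rose, with medians of 3.90, 7.15, and 4.87. In the 5802, 4397, 38, and 335 kept cells that had no UMI of any of 63 leukocyte genes, which include Ctss, 18 of 20 class I genes, 8 of 8 class II genes, and 30 of 34 interferon-γ genes rose, against 9.79% of 11820 genes higher and 19.0% called in all. In those cells the log2 fold change of Ciita was 7.55 and that of Cd74 7.08. Ciita in proximal tubule-marked cells stood at 0.5265, 0.5964, 96.01, and 86.87 CPM and Cd74 at 87.21, 141.8, 4221, and 5059 CPM.

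**Figure D2:**
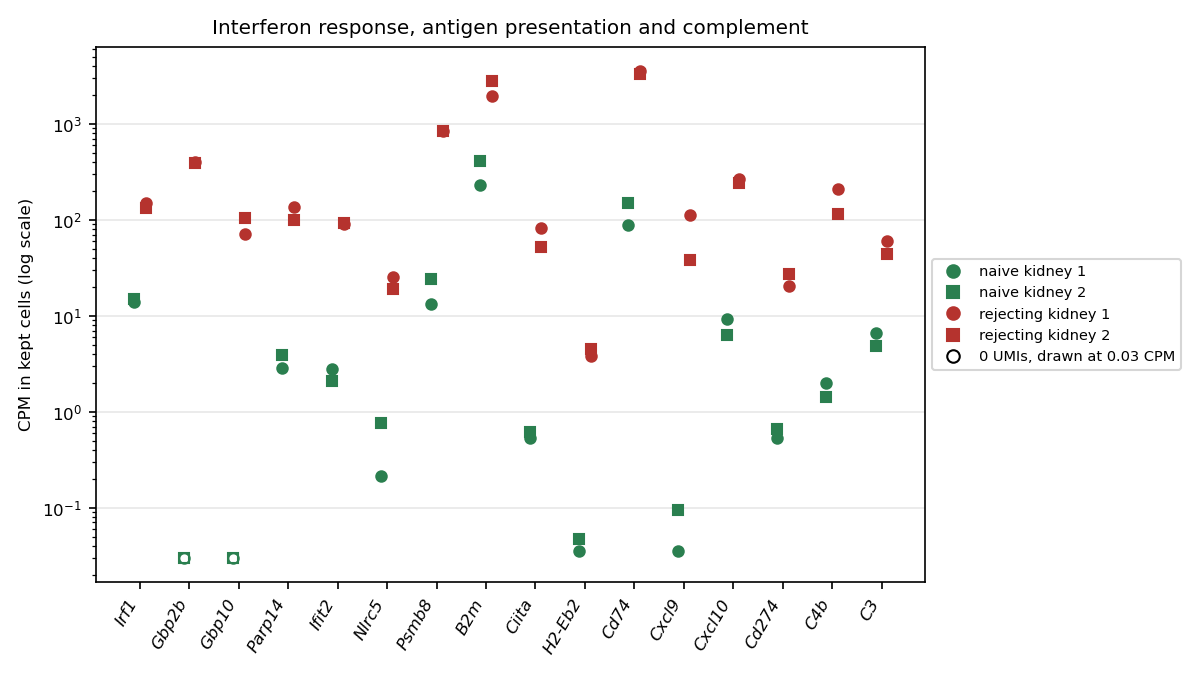
CPM in the kept cells (y axis, log scale) of genes of the interferon response, antigen presentation, and complement, with 1 point per kidney and open points for kidneys with 0 UMIs, drawn at 0.03. For every gene shown, both rejecting kidneys lie above both naive kidneys, from Gbp2b, with no naive UMI, to B2m, at 232.1 and 407.4 against 1942 and 2808 CPM. For the genes picked as the largest changes of a list, this lack of overlap was fixed by the choice.

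Genes stimulated by type I interferon, the antiviral cytokines, rose in 21 of 23 cases and fell in none, against 18.6% of all genes higher. The median log2 fold change was 2.51, and 2 of the 23 had fewer than 10 UMIs in each naive kidney. Ifit2, which binds foreign RNA, stood at 2.779 and 2.083 CPM in naive and 89.52 and 92.57 CPM in rejecting kidneys (log2 fold change 5.21, SE = 0.21, edgeR FDR = 0.000199). Parp14, an ADP-ribosyltransferase, stood at 2.85 and 3.882 against 133.9 and 99.34 CPM (5.12, SE = 0.26, edgeR FDR = 0.000299). Classic members were lower on the scale of change, with Isg15 at 3.13, Ifit1 at 2.51, and Ifit3 at 1.72. Ifitm3, at 1.00, and Ifi27l2a, at 1.48, did not pass. Cd274, which encodes the T cell inhibitory ligand PD-L1, stood at 0.5277 and 0.6627 against 20.52 and 26.9 CPM (5.32, SE = 0.277, edgeR FDR = 0.000321). In the rejecting cells left out, Cd274 had 49.1 and 67.21 raw CPM.

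Of 31 chemokines matched, 23 were tested, of which 18 rose and 2 fell, and 8 were too low. Over all genes, 18.6% were higher and 15.2% lower. Fewer than 10 UMIs were found in each naive kidney for 8 of the 23, among them Ccl8 and Cxcl9. Cxcl9, a ligand of CXCR3 on T cells, was limited to 1 and 2 naive UMIs and stood at 110.8 and 38.19 CPM in the rejecting kidneys. Cxcl10, a second ligand of CXCR3, stood at 9.147 and 6.249 against 263.7 and 239.2 CPM (log2 fold change 5.02, SE = 0.252, edgeR FDR = 0.000299). Ccl8, which attracts monocytes and T cells, had 0 and 1 naive UMIs and 117.9 and 13.08 CPM in the rejecting kidneys, so that the 2 rejecting kidneys were themselves far apart. All 3 were nearly silent or low in both naive kidneys. Ccl5, made by T and natural killer cells, stood at 3.588 and 14.39 against 349.0 and 126.0 CPM (4.74, SE = 0.796, edgeR FDR = 0.00792). These chemokines had higher raw CPM in the cells left out of the rejecting kidneys, at 1653 and 1544 for Cxcl9, 1913 and 2195 for Ccl8, 1799 and 2114 for Ccl5, and 535.4 and 516.4 for Cxcl10, and their source within the kept cells was not tested. The 2 that fell were Cxcl12 (-1.12), which retains CXCR4-bearing cells, and Ccl27a (-4.35). There were 10 higher chemokines of 19 in proximal tubule-marked cells and 8 of 17 in kidney-marked cells, with 2 lower in each. Of all genes, 17.4% were higher and 17.4% lower in the first selection, and 13.0% and 11.1% in the second.

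Of 16 complement genes tested, 9 rose and 1 fell, leaving out C1qa and C1qc, macrophage genes whose partner C1qb defined the rule. Over all genes, 18.6% were higher and 15.2% lower. With C1qa and C1qc, 3 of 18 genes had fewer than 10 UMIs in each naive kidney. C3, the central component, stood at 6.649 and 4.876 CPM in naive and 60.44 and 43.84 CPM in rejecting kidneys (log2 fold change 3.17, SE = 0.254, edgeR FDR = 0.00101). C4b, a component of the classical pathway, stood at 1.97 and 1.42 against 211.1 and 115.7 CPM (6.57, SE = 0.398, edgeR FDR = 0.000447). Both components were clearly separated between the groups, but they differed from the cells left out in opposite directions. C4b had 235.4 and 132.2 raw CPM in kept and 113.5 and 63.22 in left-out rejecting cells, whereas C3 had 67.4 and 50.11 in kept and 327.8 and 232.6 in left-out cells. Serping1, the C1 inhibitor, rose by 5.21 on the log2 scale, and Cfb, a factor of the alternative pathway, was the member that fell (-1.19).

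Among genes of tubular injury and repair, 24 of 40 members rose and 1 fell, against 18.6% of all genes higher and 15.2% lower. The median of the list was 0.95. The count was 14 higher without either naive kidney. Havcr1, which encodes the injury molecule KIM-1 of proximal tubules, had 6 and 9 naive UMIs and stood at 0.2111 and 0.4261 CPM in naive against 15.29 and 23.18 CPM in rejecting kidneys (log2 fold change 5.94, SE = 0.404, edgeR FDR = 0.000643). Vcam1, an adhesion molecule of injured tubules and endothelium, stood at 5.805 and 3.124 against 73.52 and 53.64 CPM (3.82, SE = 0.338, edgeR FDR = 0.0013). Lcn2, an iron-binding secreted protein, stood at 3.835 and 13.54 against 47.93 and 192.6 CPM (3.81, SE = 0.831, edgeR FDR = 0.0176). The rejecting kidneys lay above the naive kidneys for all 3. Spp1, which encodes osteopontin, stood at 870.3 and 823.4 against 1203 and 3315 CPM and missed the threshold (1.42, SE = 0.449, edgeR FDR = 0.0539). Spp1 did not overlap either, but Lcn2 and Spp1 differed more between the rejecting kidneys than Havcr1 and Vcam1 did. Mmp7, a matrix protease, had no naive UMI and 12 and 16 UMIs in the rejecting kidneys, at least 22.7-fold higher over the same floor. Ccl2, a chemokine for monocytes, rose from 7 and 2 UMIs to 80 and 242 UMIs. Havcr1, Mmp7, and Ccl2 were among 4 of the 40 members with fewer than 10 UMIs in each naive kidney. Among the structural members, Krt8, Krt18, Krt19, Vim, and Cd44 rose, and the stem cell marker Prom1 fell by 0.58 on the log2 scale.

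The injury genes differed between the selections of cells, and the proximal tubule selection left out a larger share of the rejecting than of the naive cells. Havcr1 in proximal tubule-marked cells stood at 0.2256, 0.4129, 20.88, and 46.18 CPM and Vcam1 at 4.4, 3.028, 77.23, and 68.46 CPM, so both remained higher. Lcn2 did not pass there (2.971, 12.07, 12.48, and 21.09 CPM, edgeR FDR = 0.189) but did in kidney-marked cells (log2 fold change 4.17, SE = 0.753, edgeR FDR = 0.013). Of 38 members tested in proximal tubule-marked cells, 13 rose and 8 fell, against 17.4% of all genes higher and 17.4% lower there. Of 38 tested in kidney-marked cells, 15 rose and none fell, against 13.0% higher and 11.1% lower.

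Most genes that let proximal tubules reabsorb solutes did not pass. Of 24 transporters, 3 rose, 4 fell, and 17 did not pass, with a median log2 fold change of -0.05. Over all genes, 18.6% rose and 15.2% fell. Slc6a19, the main carrier of neutral amino acids, stood at 141.8 and 135.8 CPM in naive and 45.16 and 55.28 CPM in rejecting kidneys (-1.47, SE = 0.169, edgeR FDR = 0.00276). Slc34a1, the sodium-phosphate cotransporter, stood at 2639 and 2317 against 1696 and 1118 CPM (-0.82, SE = 0.247, edgeR FDR = 0.0469). Both fell with no overlap between the groups, but in proximal tubule-marked cells neither passed (Slc6a19 -0.72, edgeR FDR = 0.0844, and Slc34a1 -0.14, edgeR FDR = 0.603), and there 10 transporters rose and 2 fell, with a median of 0.55. Slc34a1 and some other transporters of the list are among the genes that chose those cells. The counts were unsteady among all kept cells too, with 7 higher and 3 lower without rejecting kidney 2, 3 and 8 without rejecting kidney 1, 2 and 2 without naive kidney 1, and 1 and 1 without naive kidney 2. The largest change was that of Slc9a3, the sodium-hydrogen exchanger, with 10 and 2 naive UMIs and 33.67 and 39.9 CPM in the rejecting kidneys (7.23, SE = 0.391, edgeR FDR = 0.000364). Slc9a3 also stood at 34.67 and 41.93 raw CPM in the kept cells of the 2 tolerized kidneys, which share the strain and the gene list of the rejecting kidneys. Transplantation, strain, and gene list thus cannot be told apart for Slc9a3.

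The protein endocytosis receptors Lrp2 and Cubn did not pass. Lrp2, which encodes megalin, stood at 600.9 and 614.3 CPM in naive and 911.7 and 532.9 CPM in rejecting kidneys, and Cubn, its partner cubilin, at 95.55 and 100.7 against 110.2 and 76.67 CPM. The groups overlapped for both receptors. Of the 11 members only Fcgrt, the Fc receptor that salvages albumin and IgG, passed the test, at 115.4 and 104.6 against 52.36 and 49.63 CPM (log2 fold change -1.11, SE = 0.15, edgeR FDR = 0.00427). Over all genes, 18.6% were higher and 15.2% lower. Among proximal tubule-marked cells 6 of the 11 rose and 1 fell, with Lrp2 at 0.91 (SE = 0.18, edgeR FDR = 0.0125). Of all genes in those cells, 17.4% rose and 17.4% fell. Lrp2 and Cubn are among the genes that chose these cells, so their changes there cannot be told apart from the selection.

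Of the carriers of organic ions and drugs, 9 of 20 fell and 1 rose, with a median of -0.68, and 3 and 4 fell without naive kidneys 1 and 2. Counts of these carriers and of the regulators below are set against 18.6% of all genes higher and 15.2% lower. Slco1a1, a carrier of bile acids and steroid conjugates, stood at 199.9 and 140.2 CPM in naive and 19.41 and 17.24 CPM in rejecting kidneys (-3.21, SE = 0.23, edgeR FDR = 0.000695). Slc22a30, an organic anion transporter, stood at 279.8 and 273.3 against 61.0 and 40.05 CPM (-2.45, SE = 0.238, edgeR FDR = 0.00167). Both remained lower in proximal tubule-marked cells, at -2.52 and -1.78, where 3 of 20 members fell (against 17.4% of all genes) and 4 rose. Of 10 regulators of tubule identity, 3 fell, among them Cebpa (-0.82) and Maf (-0.74), and none rose, and Hnf4a (-0.17) did not pass. In proximal tubule-marked cells 2 of these regulators rose and none fell, with a median of 0.08, in kidney-marked cells 1 rose and 1 fell, and Cebpa passed in neither (edgeR FDR = 0.0864 and 0.0572). Without naive kidney 1 none fell, without naive kidney 2 only 1, and without rejecting kidney 2 there were 2.

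Metabolic genes of the proximal tubule fell in part. In the list of gluconeogenesis, amino acid, and inositol metabolism 12 of 22 fell and 2 rose, with a median of -0.96, and in the list of fatty acid oxidation and peroxisomes 10 of 28 fell and 3 rose, with a median of -0.60, against 15.2% of all genes lower. The second count was 5 lower without naive kidney 1 and 2 lower without naive kidney 2, and the first was 8 lower without either. Cat, the peroxisomal enzyme that breaks down hydrogen peroxide, stood at 469.9 and 548.5 CPM in naive and 184.7 and 117.4 CPM in rejecting kidneys (-1.75, SE = 0.255, edgeR FDR = 0.00518). Dpys, an enzyme of pyrimidine breakdown, stood at 12.38 and 8.663 against 0.3169 and 0.0743 CPM, the last from 4 and 1 UMIs (-5.73, SE = 0.524, edgeR FDR = 0.00139). Miox, which starts inositol breakdown in proximal tubules, stood at 2755 and 3109 against 1863 and 1102 CPM (-0.98, SE = 0.28, edgeR FDR = 0.0392). All 3 were lower in both rejecting kidneys, which for Cat and Dpys was fixed by how they were chosen. The call of Miox, itself a gene that chose the cells of both selections, was lost in proximal tubule-marked cells (-0.31, edgeR FDR = 0.225) and in kidney-marked cells (-0.74, edgeR FDR = 0.0963). Pdk4, a kinase that turns cells from glucose to fat as fuel, moved the other way, at 9.147 and 8.379 against 62.19 and 46.96 CPM (2.64, SE = 0.203, edgeR FDR = 0.000911). Kynu, an enzyme of tryptophan breakdown, also rose, at 1.829 and 1.988 against 9.19 and 8.916 CPM. Pck1, the rate-limiting enzyme of gluconeogenesis, with -1.20, and Cpt1a, which admits fatty acids to mitochondria, with -0.36, did not pass. In proximal tubule-marked cells the counts were 4 higher and 5 lower of the first list and 5 higher and 3 lower of the second, with Cat at -1.17 (SE = 0.172, edgeR FDR = 0.00517). Of all genes in those cells, 17.4% were higher and 17.4% lower.

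Nuclear genes of the respiratory chain, which build the complexes that make ATP, moved in 1 direction. Of 26 subunits, 15 fell and none rose, with a median of -0.81, against 15.2% of all genes lower. The counts were 14 lower in proximal tubule-marked and 12 lower in kidney-marked cells, with none higher. Of all genes, 17.4% and 11.1% were lower in those cells. Without naive kidneys 1 and 2 in turn, 6 and 4 fell. The largest changes were in small subunits of ATP synthase. Usmg5 stood at 1368 and 1791 CPM in naive and 163.7 and 263.6 CPM in rejecting kidneys (-2.89, SE = 0.296, edgeR FDR = 0.00189), and Atp5k at 1178 and 1501 against 233.5 and 389.7 CPM (-2.10, SE = 0.293, edgeR FDR = 0.00454). Both genes also had lower raw CPM in the rejecting than in the naive cells left out by the rule, with Atp5k at 719.8, 682.5, 168.7, and 216.4. The catalytic subunits Atp5a1 (-0.21) and Atp5b (-0.43) did not pass. The ribosomal proteins Rps28 and Rpl41 moved with these subunits, from 1189 and 1278 to 108.1 and 217.1 CPM and from 3353 and 4094 to 770.7 and 817.4 CPM. The study had set apart 8 ribosomal genes as higher in myeloid clusters of tolerized than of rejecting kidneys. Here, against naive kidneys and in kept cells, 5 of the 8 fell. The list was drawn in part from these same rejecting kidneys, so its count is not independent. Mitochondrially encoded genes were limited by the rule and are given as a description, with mt-Nd1 at 27810 and 33400 against 7494 and 6358 CPM and log2 fold changes of -2.14 to 0.69 over 13 genes. Of 14 glycolysis genes, 4 rose and 1 fell, but 2 rose and 3 fell in proximal tubule-marked cells, and 2 rose and none fell without either naive kidney. Over all genes, 18.6% were higher and 15.2% lower in the kept cells. Slc16a3, a lactate exporter, stood at 0.6684 and 0.5681 against 2.773 and 2.898 CPM. Its call was lost in proximal tubule-marked (0.73, edgeR FDR = 0.32) and kidney-marked cells (1.49, edgeR FDR = 0.0817), and in the rejecting kidneys its raw CPM was 16.98 and 24.2 in the cells left out. Ldha, lactate dehydrogenase, fell by 0.69 on the log2 scale. Pgk1 stood at 7.423 and 20.36 against 271.2 and 297.8 CPM, and at 331.3 and 279.3 raw CPM in the tolerized kidneys. For Pgk1, transplantation and the strain, gene list, and software that all grafts share cannot be told apart.

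Antioxidant and detoxifying genes fell in 14 of 26 cases and rose in 2, and 8 and 6 fell without naive kidneys 1 and 2. Counts of this list are set against 18.6% of all genes higher and 15.2% lower. Gpx3, the secreted glutathione peroxidase that proximal tubules supply to plasma, stood at 12620 and 14220 CPM in naive and 5278 and 3832 CPM in rejecting kidneys (-1.56, SE = 0.237, edgeR FDR = 0.00593). Gsta2, a glutathione transferase, stood at 274.7 and 234.9 against 46.42 and 66.5 CPM (-2.17, SE = 0.227, edgeR FDR = 0.00201). Slc7a11, the cystine importer of glutathione synthesis, had 1 and 0 naive UMIs and 13 and 31 UMIs in the rejecting kidneys. The 2 glutathione genes were thus lower in both rejecting kidneys. The importer had 19.64 and 14.73 raw CPM in the rejecting cells left out, above the kept cells, and was too low to be tested in either selection. Kap, an androgen-responsive gene of proximal tubules, stood at 21030 and 21780 against 20540 and 19120 CPM, a log2 fold change of -0.11 (SE = 0.199) that did not pass.

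**Figure D3:**
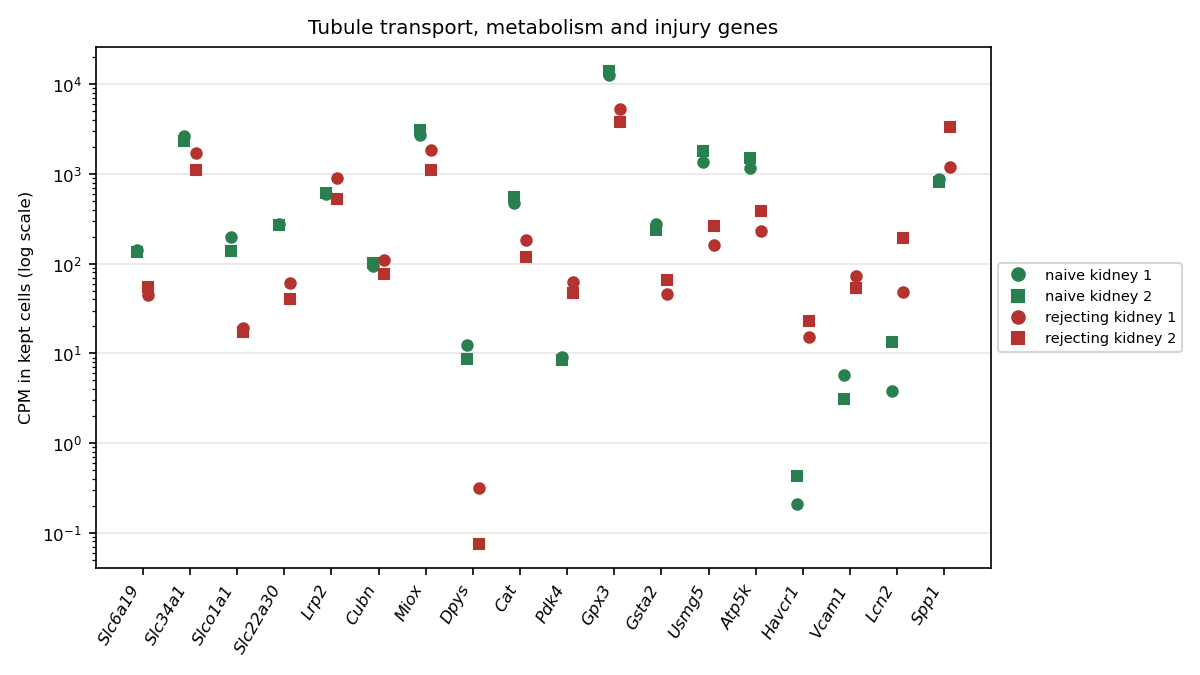
CPM in the kept cells (y axis, log scale) of genes of tubule transport, metabolism, and injury, with 1 point per kidney. Slco1a1, Dpys, Cat, and Usmg5 lie lower in both rejecting kidneys, Lrp2 and Cubn overlap, and Havcr1, Vcam1, and Pdk4 lie higher. For the genes picked as the largest changes of a list, a lack of overlap was fixed by the choice.

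Calls of genes of distal segments, read over all kept cells, went in both directions. Their counts are set against 18.6% of all genes higher and 15.2% lower. Of 15 genes of the thick ascending limb 3 rose and 3 fell, with 7 higher without rejecting kidney 1 and none lower without naive kidney 1, and Umod, which encodes uromodulin, stood at 1072 and 1015 CPM in naive and 1121 and 2043 CPM in rejecting kidneys and did not pass (0.60, SE = 0.296, edgeR FDR = 0.163). Egf, a growth factor of this segment and the distal tubule, fell from 838.1 and 599.9 to 167.8 and 320.1 CPM (-1.56, SE = 0.342, edgeR FDR = 0.0179). With cells of at most 20% mitochondrial UMIs its log2 fold change turned to 0.28 and did not pass, and without naive kidney 1 the call was lost at -1.31. The paracellular magnesium channel Cldn16 rose from 6.192 and 4.119 to 10.06 and 20.88 CPM (1.58, SE = 0.391, edgeR FDR = 0.0256). Of 16 genes of the distal convoluted and connecting tubule 2 rose and 1 fell, with 9 lower without rejecting kidney 2, and Slc12a3, the thiazide-sensitive cotransporter, stood at 443.7 and 388.8 against 571.8 and 672.2 CPM (0.58, SE = 0.18, edgeR FDR = 0.0508). S100g, a calcium-binding protein, stood at 2441 and 3104 against 669.7 and 2522 CPM, with rejecting kidney 1 far below the other 3, and did not pass.

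Of 17 genes of collecting duct principal cells, read over all kept cells, 6 fell and 2 rose, the keratins Krt8 and Krt18. Both keratins are also members of the tubular injury list. Without rejecting kidney 2, 12 fell, and without naive kidney 2, 2 fell. Apela, a peptide hormone gene, stood at 134.4 and 122.5 against 13.07 and 43.24 CPM (-2.19, SE = 0.506, edgeR FDR = 0.0209), and Kcne1, a potassium channel subunit, at 34.27 and 41.99 against 4.832 and 11.89 CPM (-2.18, SE = 0.395, edgeR FDR = 0.00994). Aqp2, the vasopressin-regulated water channel, stood at 559.1 and 903.8 against 148.0 and 490.1 CPM and did not pass (-1.20, SE = 0.546, edgeR FDR = 0.138). For all 3 genes rejecting kidney 1 was the lowest of the 4. Of 18 intercalated cell genes 3 rose and 3 fell (1 and 1 without naive kidney 2), with Car15, a carbonic anhydrase, at 7.317 and 6.58 against 43.49 and 15.9 CPM (2.09, SE = 0.457, edgeR FDR = 0.0176) and Slc4a9, an anion exchanger, at 2.639 and 3.03 against 9.348 and 12.85 CPM (1.97, SE = 0.269, edgeR FDR = 0.00434). Counts of both lists are set against 18.6% of all genes higher and 15.2% lower. The shares of cells with markers of these segments, given above, also differed between the kidneys, and their part in these counts was not tested.

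Podocytes, endothelium, and stroma were scarce among the kept cells. Counts of their genes are set against 18.6% of all genes higher and 15.2% lower. The podocyte regulator Wt1 had 74 and 61 naive and 1 and 6 rejecting UMIs (log2 fold change -3.33, SE = 0.618, edgeR FDR = 0.0107). It was close to absent in the rejecting kidneys at this depth, and 3 of 12 podocyte genes fell and 1 rose, with none of either without naive kidney 2. Of 20 endothelial genes 4 fell and 2 rose, with Plat, tissue plasminogen activator, at 63.71 and 105.2 against 18.14 and 18.65 CPM (-2.20, SE = 0.263, edgeR FDR = 0.00299) and Plvap, a protein of fenestral diaphragms, at 1.865 and 5.255 against 18.54 and 19.99 CPM (2.46, SE = 0.448, edgeR FDR = 0.0101). Plvap did not pass in proximal tubule-marked (0.90, edgeR FDR = 0.292) or kidney-marked cells (2.23, edgeR FDR = 0.0885), where no endothelial gene rose and 10 and 5 fell. In all kept cells, 10 fell without rejecting kidney 1 and 2 without naive kidney 2. Of 17 genes of stroma and extracellular matrix 9 rose and none fell, with a median of 1.43, and the higher ones numbered 5 without either naive kidney and 15 without rejecting kidney 1. Tgfbi, a matrix protein that macrophages also make, stood at 0.985 and 1.42 against 9.348 and 8.396 CPM (2.89, SE = 0.311, edgeR FDR = 0.00219), and had 242.4 and 342.5 raw CPM in the rejecting cells left out. Timp1, a protease inhibitor, had 9 and 0 naive and 14 and 105 rejecting UMIs. In proximal tubule-marked cells, a selection that left out a larger share of the rejecting cells, the stromal count was 4 higher and 3 lower. The stromal median there was -0.72.

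Among genes of cell division, 12 of 25 rose and none fell, and 4 rose without naive kidney 1. Cenpf, a kinetochore protein, stood at 1.337 and 1.988 CPM in naive and 13.86 and 23.26 CPM in rejecting kidneys (3.49, SE = 0.353, edgeR FDR = 0.00182), and Top2a, which untangles DNA before division, at 2.674 and 4.261 against 23.85 and 25.93 CPM (2.85, SE = 0.261, edgeR FDR = 0.00139). In the rejecting cells left out, Top2a had 62.59 and 92.7 raw CPM. The cell division count was 13 higher and 1 lower in proximal tubule-marked cells and 8 higher and 1 lower in kidney-marked cells. Counts over all kept cells in this paragraph are set against 18.6% of all genes higher and 15.2% lower. Of 20 heat shock and endoplasmic reticulum genes 8 rose and none fell, with 2 and 3 higher without naive kidneys 1 and 2, and with Ddit3, a transcription factor of the unfolded protein response, at 19.42 and 17.52 against 62.27 and 47.85 CPM (1.57, SE = 0.19, edgeR FDR = 0.00303). Hspa1b, an inducible chaperone, stood at 33.0 and 57.75 against 79.06 and 112.0 CPM (1.08, SE = 0.306, edgeR FDR = 0.0391). Of 20 immediate early genes 7 rose and 1 fell, while Fos (0.28) and Ier2 (0.04) did not pass. Egr3 had 2 and 0 naive and 39 and 78 rejecting UMIs, and Fosl1 had 0 naive and 9 and 7 rejecting UMIs. These were the 2 members with fewer than 10 UMIs in each naive kidney. Of all genes, 17.4% were higher and 17.4% lower in proximal tubule-marked cells, and 13.0% and 11.1% in kidney-marked cells. In proximal tubule-marked cells 6 of the immediate early genes rose and 5 fell, with a median of 0. In kidney-marked cells 3 rose and 3 fell, with a median of -0.03. Only 3 and 2 rose without naive kidneys 1 and 2.

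**Figure D4:**
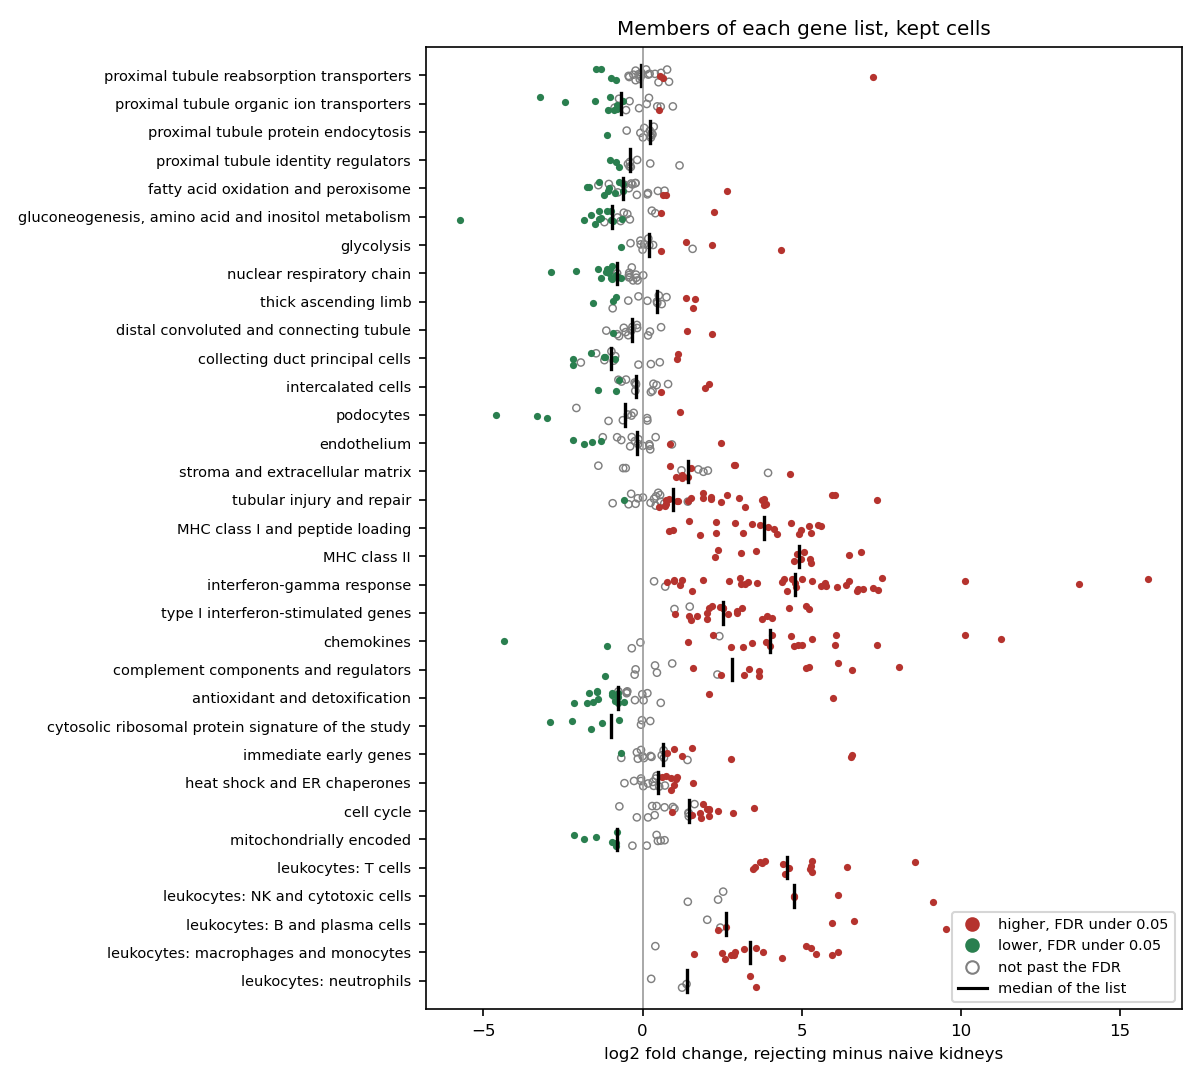
Log2 fold change, rejecting minus naive (x axis), of each tested member of the gene lists in the kept cells, where filled points passed the edgeR FDR, open points did not, and bars are list medians. The MHC and interferon lists lie to the right, with medians of 3.82, 4.90, and 4.78, and the respiratory chain to the left, with a median of -0.81.

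**Figure D5:**
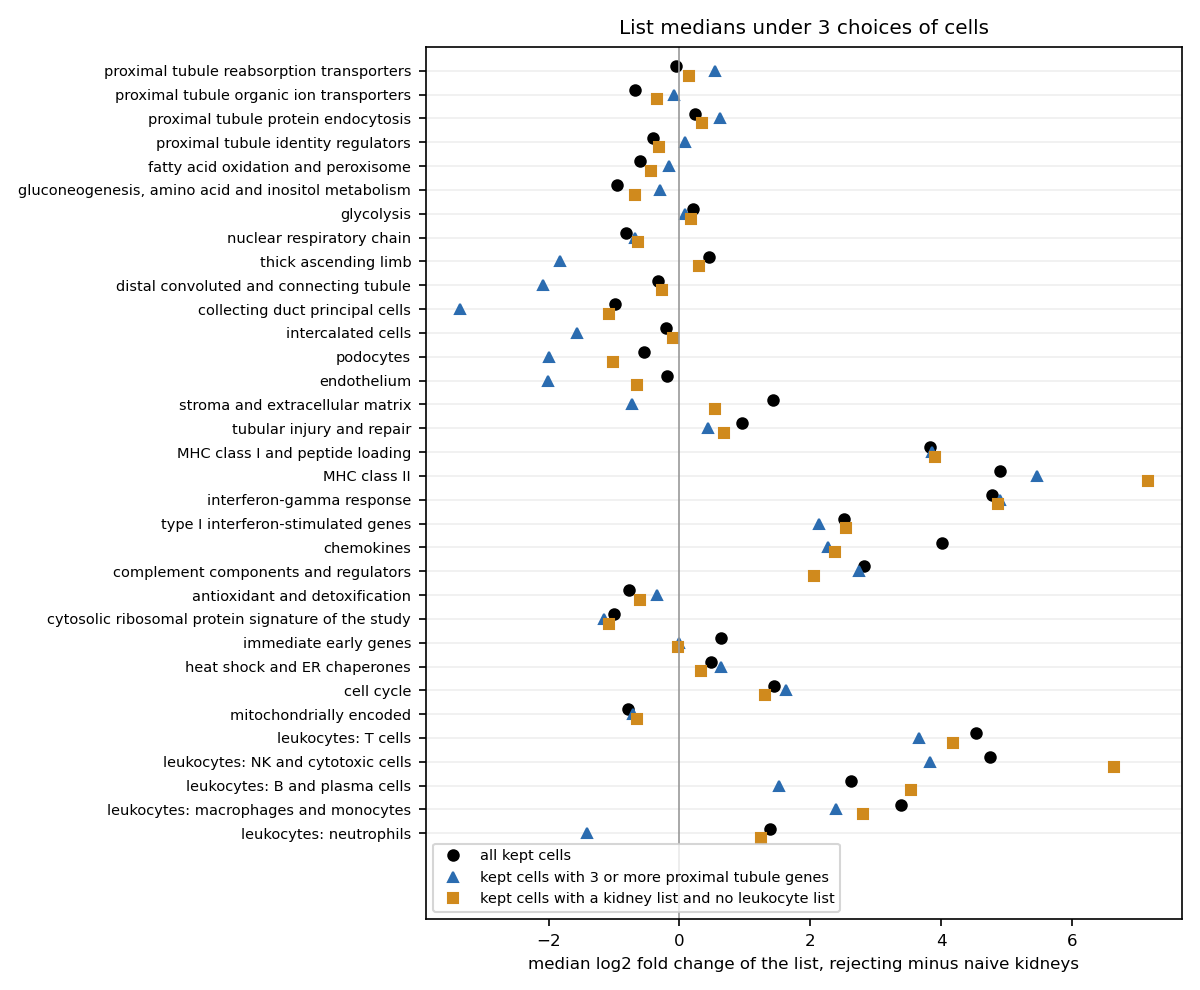
Median log2 fold change of each list (x axis), rejecting minus naive, in all kept cells, in proximal tubule-marked cells, and in kidney-marked cells. The MHC class I median stays between 3.82 and 3.90, whereas the thick ascending limb median moves from 0.45 to -1.83 in proximal tubule-marked cells. That selection left out a larger share of the rejecting than of the naive cells.

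The largest changes over the whole table included genes of leukocytes and genes that were all but absent in 1 group. Beside Gbp2b and Gbp10, the highest were the immunoglobulin heavy chain genes Ighg2b, Igha, and Ighg3, with no naive UMI. Igha had 644 and 2675 UMIs in the rejecting kidneys, but Ighg2b had 10 and 8665 and Ighg3 had 8 and 2045, so the values of the last 2 came almost entirely from rejecting kidney 2. The lowest were Car3, a carbonic anhydrase, with 2277 and 2472 naive UMIs and none in the rejecting kidneys, Gm49342, with 2102 and 1501 against none, and Azgp1, with 2368 and 628 against none. Gm45792 had 1731 and 922 against 2 and 1 UMIs, and Tonsl, a DNA repair factor, 3113 and 2459 against 21 and 13. All 5 were also at 0 to 1.069 raw CPM in the kept cells of the tolerized kidneys, so transplantation and the strain, gene list, and software that all grafts share cannot be told apart for them.

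Genes that differ with sex were read because donors of this study could be of either sex. The Y-linked genes Uty, Kdm5d, and Eif2s3y did not pass and were detected in all 4 kidneys, at 12.91 to 17.34 CPM for Uty, and Xist had 1 to 5 UMIs per kidney. Ddx3y, also Y-linked, stood at 58.47 and 52.22 against 33.51 and 40.49 CPM (-0.58, SE = 0.168, edgeR FDR = 0.0409). Of the 11 genes of this list tested, 2 rose and 5 fell, against 18.6% of all genes higher and 15.2% lower. Of the genes that are higher in male proximal tubules, Slco1a1 fell and Kap did not pass, as given above, and 3 more fell, with Cyp2e1 at 533.7 and 572.1 against 174.4 and 105.3 CPM, Cyp4b1 at 2169 and 1477 against 806.1 and 507.2 CPM, and Slc7a13 at 404.3 and 329.3 against 150.0 and 84.1 CPM. Slc7a12, which is higher in females, stood at 1.266 and 1.183 against 25.11 and 20.21 CPM (4.20, SE = 0.232, edgeR FDR = 0.000378), and Prlr, the prolactin receptor, at 2.85 and 2.462 against 7.526 and 10.77 CPM (1.78, SE = 0.29, edgeR FDR = 0.00727).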

How the data were processed

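The authors sequenced 1 droplet library per dissociated kidney and used CellRanger to align reads to mm10 and count UMIs. The deposited matrices hold these raw counts per gene and barcode, as whole numbers without normalization. The headers of the transplanted kidneys name CellRanger 3.0.1, and those of the naive kidneys name none. Kept cells were those given at the start of the report. Doublets, called per kidney with Scrublet in scanpy 1.11.5 at a rate set by the number of barcodes, were kept in the main fit and left out in an alternative, because the study removed them with another tool. Counts of kept cells were summed per kidney over genes shared by ID, filtered with filterByExpr, scaled by TMM, and compared by quasi-likelihood in edgeR 4.0.16 (R 4.3.3), with Benjamini-Hochberg adjustment and a threshold of 0.05. DESeq2 1.42.0 was an alternative, as were other limits, gates, scalings, a replicate block, thinned cells, and leaving out each kidney. The fit was tested on simulated counts of 13651 genes, where 100 were changed 2-fold, 100 were changed 4-fold, and 13451 were unchanged. It called 63% of 2-fold and 99% of 4-fold changes and 0.0818% of unchanged genes. Changed genes were drawn only from those with higher counts, and far fewer genes changed than were called in the data. The shares thus do not cover genes with few UMIs.

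Named genes are a fixed set of anchors with the genes the study names in kidney cells, the 2 genes with the largest change in each list among those past the threshold without overlap, the 5 largest in each direction at a mean of at least 20 CPM, the highest leukocyte gene of each list, and genes that differ with sex. For genes named as the largest of a list or of the whole table, a call without overlap was fixed by the choice. Other members are named as examples chosen after their values were seen. Some genes of this set are not reported here. Members and lists were chosen with earlier results of these data known. Ptprc, Cd3e, and C1qb are 0 by the rule and were not tested. Counts from the naive pair and from the rejecting pair differed beyond sampling noise, so each kidney was counted once. Gene positions follow GENCODE M21. Intervals between kidneys cover 2 animals per group, and p values rest on the spread between these kidneys alone. The test estimates the spread of each gene in part from the trend over all genes. Python 3.11.15 was used for sums and figures.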

Additional observations from a re-analysis of the deposited data

How the results depend on the processing

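The number of genes past the FDR of 0.05 was 4707 with edgeR and 4607 with DESeq2 (4327 shared), and stayed between 3219 and 5275 under all alternatives except 4. It was 2243 (1157 higher and 1086 lower) in cells without a UMI of any of 63 leukocyte genes and 2009 (937 and 1072) in those of them that also passed the proximal tubule gate, where rejecting kidney 1 held 38 and 25 cells. Leaving out 1 kidney at a time gave 1766 to 5237 calls, 1072 to 2729 higher and 694 to 2508 lower. The labels give both groups the replicate numbers 1 and 2. In the paper, each sequenced kidney is marked as from experiment 1 or 2, which the labels do not give. Deviations from the group means correlated at 0.033 between same-numbered kidneys over 13923 genes, and a batch shared by them was not tested further. The main fit had no block. The fit with a replicate block called 3751 genes (2090 higher and 1661 lower), and 3659 of the 4707 main calls remained. Log2 fold changes changed sign in the proximal tubule gate (Car15 -1.71, Cldn16 -8.11, Lcn2 -0.94, Ptger3 -0.63, Slc12a3 -2.83, Slc4a9 -7.03, Slc8a1 -7.18, and Umod -1.55, with Cubn 0.44 and Kap 0.03) and in proximal tubule-marked cells (Cldn16 -0.59, Ptger3 -0.70, S100a9 -0.69, Slc12a3 -2.06, Umod -1.83, Cubn 0.62, and Kap 0.61). With at most 20% mitochondrial UMIs they were Cubn 0.44, Egf 0.28, Kap 0.61, and Siglech -0.43. In kidney-marked cells they were Cubn 0.11 and Kap 0.12, and without leukocyte UMIs Cubn 0.02, Eif2s3y 0.05, and Lrp2 -0.04. Thinning gave Eif2s3y 0.35, the block Siglech -0.15, and leaving out 1 kidney at a time ranges of -0.36 to 0.18 for Cubn, -0.20 to 0.60 for Lrp2, and -6.81 to 1.27 for Siglech. Both proximal tubule selections left out a larger share of the rejecting than of the naive cells. The cause of the sign changes was not tested. At this depth a gene with a 2-fold change was called in 63% of the simulated cases, and the 25 cells of rejecting kidney 1 limit what the strictest gate can show.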
